A study of Saccharomyces cerevisiae with 12 samples.

Results

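The 9 genes described here control the start of the budding yeast cell cycle and the passage through S phase and mitosis. They are the G1 cyclin genes CLN1, CLN2 and CLN3, the B-type cyclin genes CLB1, CLB2, CLB5 and CLB6, the gene of the S-phase kinase inhibitor Sic1 (SIC1) and the gene of the G1 repressor Whi5 (WHI5). They were taken by systematic name from a count table of 7110 features, and all 9 were found. Poly(A)-selected RNA was sequenced from 12 libraries of Saccharomyces cerevisiae, all from the S288c background and grown to log phase in synthetic complete glucose medium. The groups were ups1Δ cells with tunicamycin, untreated ups1Δ cells, wild-type cells with tunicamycin and untreated wild-type cells, with 3 libraries each. Treated cultures received 1 μg/ml tunicamycin, which blocks protein N-glycosylation, for 3 h. Whether untreated cultures received the solvent is not given in the sources used here. Ups1 carries phosphatidic acid between the mitochondrial membranes. The sources do not say whether the ups1Δ libraries came from more than 1 clone, or whether replicates were separate cultures, so p-values measure the spread between these libraries, which may be technical.

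Cyclins bind and activate the cyclin-dependent kinase Cdc28. Cln3 acts first, by relieving the repression that Whi5 places on the transcription factor SBF, and SBF then drives the transcription of CLN1 and CLN2, while the related factor MBF drives that of CLB5 and CLB6. Kinase bound to Clb5 and Clb6 starts DNA replication once Sic1 has been destroyed, and kinase bound to Clb1 and Clb2 drives mitosis. The RNAs of most of these genes therefore peak in 1 phase of the cycle, and the cultures were not described as synchronized. In RNA from whole cultures, fewer cells in a phase and less RNA per cell cannot be told apart, and this holds for each difference below.

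Stretches upstream of 3 of the genes are shown because these genes held the most matches to the binding motifs of SBF and MBF and lie on both sides of the contrasts described below. The stretches are from the RefSeq sequence of the R64 assembly, the one that sacCer3 represents, with the bases 5′ to 3′ on the coding strand of the gene. Capitals mark CNCGAAA, the SBF motif, upstream of CLN2 and CLN1, and ACGCGT, the MBF motif, upstream of CLB6. The CLN2 stretch is chrXVI:67112-67261 (minus strand, 647 to 498 bases before the start codon), the CLN1 stretch is chrXIII:662129-662278 (plus strand, 515 to 366 bases before it) and the CLB6 stretch is chrVII:706814-706963 (minus strand, 462 to 313 bases before it).
CLN2: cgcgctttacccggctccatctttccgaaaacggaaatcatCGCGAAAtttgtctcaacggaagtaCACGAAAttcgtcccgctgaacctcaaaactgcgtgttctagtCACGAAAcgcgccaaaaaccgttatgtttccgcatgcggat
CLN1: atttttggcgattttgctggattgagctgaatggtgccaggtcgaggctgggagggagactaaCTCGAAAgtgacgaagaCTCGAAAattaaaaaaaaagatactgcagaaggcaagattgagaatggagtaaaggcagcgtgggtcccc
CLB6: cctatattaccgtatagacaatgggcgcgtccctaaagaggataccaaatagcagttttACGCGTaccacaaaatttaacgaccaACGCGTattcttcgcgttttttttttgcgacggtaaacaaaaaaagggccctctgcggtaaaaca

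Both strands of the 800 bases before each start codon were searched, and a match to one motif can share at most 1 base with a match to the other. CLN2 had 3 SBF motifs, at 606, 581 and 538 bases, and CLN1 also had 3, at 792, 452 and 435 bases. Of 5997 genes, 0.767% had as many and 29.9% had at least 1. CLB6 had 2 MBF motifs, at 403 and 377 bases, as did 0.75% of genes, while 7.62% had at least 1. CLN1 had 1 MBF motif, at 606 bases. CLB1 had 1 SBF motif, at 666 bases, and SIC1 had 1, at 7 bases, directly before the start codon. CLN3, CLB2, CLB5 and WHI5 had 0 matches to either motif in these letters. The motif GTAAACA of the forkhead factors Fkh1 and Fkh2, which act with Mcm1 on genes such as CLB2, was found once each before CLN1, CLB1, CLB2, CLB6 and WHI5, and before 15.0% of all genes. A match is a description of the sequence only.

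Each of the 9 coding sequences is a single exon of between 855 and 1743 bases. CLB2 (YPR119W, chromosome XVI, 771653 to 773128) and CLB5 (YPR120C, 773875 to 775182) point at each other with 746 bases between them. CLB1 (YGR108W, chromosome VII, 703636 to 705051) and CLB6 (YGR109C, 705359 to 706501) do so with 307 bases between them. CLN1 (YMR199W) is on chromosome XIII from 662644 to 664284, CLN2 (YPL256C) on chromosome XVI from 64977 to 66614 and CLN3 (YAL040C) on chromosome I from 65778 to 67520. SIC1 (YLR079W) is on chromosome XII from 286820 to 287674, and WHI5 (YOR083W) is on chromosome XV from 479533 to 480420. CLN1 with CLN2, CLB1 with CLB2 and CLB5 with CLB6 are paralog pairs, and how reads shared between paralogs were split is not given in the sources used here.

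Library totals ranged from 4650828 to 7101983 counts. The deleted gene UPS1 had 0 to 2 counts in the ups1Δ libraries and 185 to 427 in the wild-type libraries. The genotypes also differed in mating type markers. In ups1Δ libraries the a-specific genes AGA2, ASG7 and MFA2 were near 0, with 0 to 4, 0 to 5 and 1 to 4 counts. All 7 a-specific genes summed to 43.6 to 52.2 CPM (the share of a TMM-scaled library's counts, times 1e6) in ups1Δ libraries and 1479 to 3907 CPM in wild-type libraries. The 4 alpha-specific genes summed to 1714 to 3972 CPM in ups1Δ libraries and 59.6 to 126 CPM in wild-type libraries. Each difference between genotypes is therefore also one between mating types, and their part in it cannot be told apart. The 132 genes of ribosomal proteins summed to 100475 to 112291 CPM in tunicamycin-treated ups1Δ cells, 123644 to 145675 in untreated ups1Δ cells, 25006 to 33123 in treated wild-type cells and 195872 to 216159 in untreated wild-type cells.

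Per kilobase of coding length, SIC1 RNA was the most abundant of the 9 in ups1Δ cells, at 145 ± 19.5 CPM per kb with tunicamycin and 145 ± 3.08 without (SD, n = 3). CLN2 was the most abundant in wild-type cells, at 163 ± 49.0 CPM per kb with tunicamycin and 123 ± 5.11 without. CLB6 was the lowest in each group, between 0.255 CPM per kb in treated and 8.53 in untreated wild-type cells. The range of group means was widest for CLB6 (5.25 on the log2 scale), CLB2 (2.03), CLN1 (1.58), CLB1 (1.43) and CLN2 (1.40), and it was narrowest for CLN3 (0.70) and SIC1 (0.32).

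**Figure D1:**
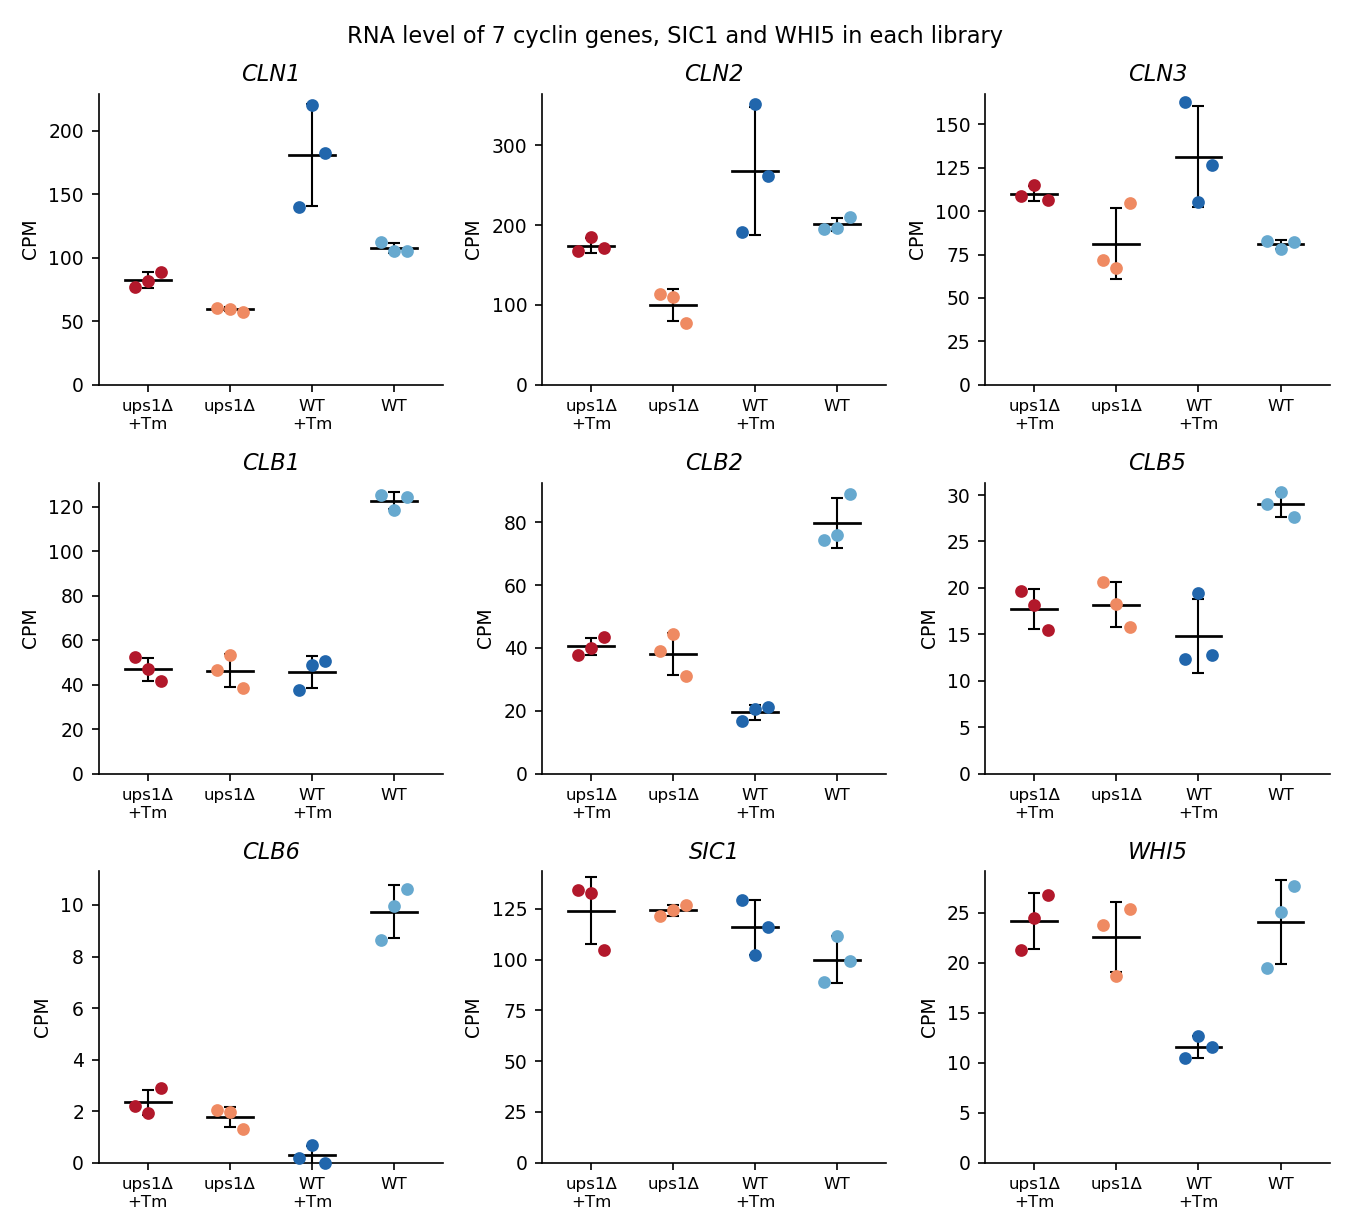
RNA level (CPM, linear axes from 0) of each gene in the 12 libraries. Each point is 1 library, the line is the group mean and the bars are ± SD (n = 3); Tm is tunicamycin. The B-type cyclin genes stood highest in untreated wild-type cells, and CLN1 and CLN2 had their highest means in treated wild-type cells.

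In untreated cells, the loss of Ups1 went with lower RNA of 6 of the 7 cyclin genes and higher RNA of SIC1. Of the 9 genes, 1 rose and 6 fell past the adjusted threshold of 0.05 in edgeR's quasi-likelihood test, where 52.3% of the 5692 genes tested were called, 26.5% higher and 25.8% lower. The median log2 fold change was -0.83 over the 9 genes and 0.021 over all genes. The libraries of the 2 genotypes did not overlap for 7 of the 9, against 64.2% of all genes.

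Among the G1 cyclin genes, CLN1 had 60.6, 59.9 and 57.5 CPM in ups1Δ libraries, against 113, 105.3 and 105.4 CPM in wild-type libraries. The groups were far apart relative to their spread (log2 fold change -0.83, SE 0.074, adjusted p = 6.17e-05 in edgeR). CLN2 had 113, 109.6 and 77.0 CPM in ups1Δ libraries, against 195, 197 and 210.3 CPM in wild-type libraries. Replicate 3 of ups1Δ was the lowest, but the other 2 also lay below each wild-type library (-0.97, SE 0.13, adjusted p = 7.16e-04 in edgeR). CLN3, the upstream G1 cyclin, had 71.6, 67.3 and 104.6 CPM in ups1Δ libraries, against 82.8, 78.1 and 82.0 CPM in wild-type libraries. The groups overlapped, with replicate 3 of ups1Δ above and the other 2 below each wild-type library (0.035, SE 0.16, adjusted p = 0.869 in edgeR). Without that library the difference was -0.20 (adjusted p = 0.0625 in edgeR).

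All 4 B-type cyclin genes were lower in ups1Δ cells. CLB6, an S-phase cyclin gene, had 9, 9 and 6 counts in ups1Δ libraries, against 39, 43 and 53 counts in wild-type libraries. Its summed counts stood in a ratio of 0.181 after scaling (95% interval 0.112 to 0.281, counting error only), and the fitted value on the log2 scale was -2.41 (SE 0.27, adjusted p = 2.41e-04 in edgeR). CLB6 passed the low count filter here through the untreated wild-type libraries, and it was removed from the comparisons without that group. CLB5, its paralog, had 20.6, 18.2 and 15.8 CPM in ups1Δ libraries, against 29.0, 30.4 and 27.7 CPM in wild-type libraries (-0.64, SE 0.13, adjusted p = 0.00389 in edgeR). CLB1, a mitotic cyclin gene, had 46.4, 53.6 and 38.7 CPM in ups1Δ libraries, against 125, 118 and 124 CPM in wild-type libraries (-1.38, SE 0.11, adjusted p = 3.47e-05 in edgeR). All 3 ups1Δ libraries lay below all 3 wild-type libraries for each of these genes. CLB2, the main mitotic cyclin gene, had 39.1, 44.3 and 31.1 CPM in ups1Δ libraries, against 74.4, 76.0 and 89.0 CPM in wild-type libraries (-1.04, SE 0.13, adjusted p = 5.07e-04 in edgeR).

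SIC1 ran the other way, with 121, 125 and 127 CPM in ups1Δ libraries, against 89.0, 112 and 99.2 CPM in wild-type libraries (0.34, SE 0.089, adjusted p = 0.0110 in edgeR). WHI5 had 23.8, 18.7 and 25.4 CPM in ups1Δ libraries, against 19.5, 25.0 and 27.7 CPM in wild-type libraries, and the groups overlapped (-0.062, SE 0.17, adjusted p = 0.784 in edgeR). The 7 calls were made in each of the 6 fits that left out 1 library.

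Of 29 targets of SBF and MBF at the G1/S transition, 24 were lower and 0 were higher in untreated ups1Δ cells by edgeR, with a median log2 fold change of -0.49. The number lower was 18 to 25 in fits that left out 1 library, and 18 wherever a wild-type library was left out. The shares over all genes were 26.5% higher and 25.8% lower. The largest decreases were in MNN1, a Golgi mannosyltransferase gene (94.3 ± 12.0 CPM in ups1Δ and 306 ± 13.6 in wild-type cells, log2 fold change -1.67), and POL30, which encodes the replication clamp PCNA (60.9 ± 12.4 and 115 ± 6.40 CPM, -0.88). Of 21 genes of the mitotic CLB2 cluster, 11 were lower and 0 higher (median -0.24), but 6 were lower with DESeq2 or with scaling by library size only. Fits without 1 library gave 3 to 10 lower, with 3 without wild-type replicate 3 and 4 without wild-type replicate 2 or ups1Δ replicate 1. SWI5, a transcription factor gene of this cluster, was lower (-0.38), as was BUD8, a bud site selection gene (-0.39).

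Of the 8 genes for the Cdc28 kinase and its other partners, 6 were lower and 0 higher, with 4 lower under scaling by library size only and 3 without wild-type replicate 2 or ups1Δ replicate 1. CDC28 itself had 63.1 ± 4.83 CPM in ups1Δ and 82.4 ± 1.13 CPM in wild-type cells (log2 fold change -0.35, SE 0.085, adjusted p = 0.00817 in edgeR). The other B-type cyclin genes CLB3 (-0.28) and CLB4 (-0.32) were also lower. FAR1, which encodes an inhibitor of Cln-bound kinase, had 70.8 ± 14.2 CPM in ups1Δ and 167 ± 6.07 CPM in wild-type cells (-1.203). SWE1, the gene of the kinase that inhibits Cdc28 before mitosis, was also lower (-0.61). Of 15 regulators of G1/S transcription, 4 were higher and 6 lower, and 3 and 3 without wild-type replicate 1 or 2. The shares over all genes were 26.5% higher and 25.8% lower. XBP1, a stress-induced repressor of CLN genes, had 122 ± 66.3 CPM in ups1Δ and 16.7 ± 2.76 CPM in wild-type cells (2.89, SE 0.45, adjusted p = 0.00379 in edgeR), and SRL3, a relative of WHI5, was higher too (1.62). The repressors YOX1 (-1.21) and NRM1 (-0.83) were lower. The subunits of SBF and MBF were looked up after the values were seen. SWI4, the DNA-binding subunit of SBF, was lower (-0.48), MBP1, that of MBF, was higher (0.20), and SWI6, the subunit they share, stood at -0.0805 (adjusted p = 0.384 in edgeR).

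Tunicamycin in wild-type cells went with more RNA of CLN1 and CLN3 and less RNA of all 4 B-type cyclin genes and of WHI5. By edgeR, 2 of the 9 genes were higher and 5 lower, where 76.4% of 5785 genes were called, 39.4% higher and 37.0% lower. The median over the 9 was -0.98, and over all genes it was 0.052. For 7 of the 9 the treated libraries lay wholly above or below the untreated ones, against 80.0% of all genes. Scaling by library size only moved the median of all genes to 0.57, so the differences in wild-type cells are relative to the TMM scaling.

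CLN1 had 140.3, 220.5 and 183 CPM in treated libraries, against 113, 105.3 and 105.4 CPM in untreated libraries. All 3 treated libraries were above all untreated ones, with a wide spread among them (log2 fold change 0.73, SE 0.15, adjusted p = 0.00140 in edgeR). CLN3 had 163, 105.4 and 126 CPM in treated libraries, against 82.8, 78.1 and 82.0 CPM in untreated libraries (0.68, SE 0.14, adjusted p = 0.00186 in edgeR). CLN2 had 191, 351 and 261 CPM in treated libraries, against 195, 197 and 210.3 CPM in untreated libraries. Treated replicate 1 lay below the untreated libraries and the other 2 above them, and the difference did not pass the test (0.39, SE 0.19, adjusted p = 0.0903 in edgeR). It passed without treated replicate 1 (0.58, adjusted p = 0.00640 in edgeR).

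CLB6 RNA was near the limit of detection in treated wild-type cells, with 1, 4 and 0 counts in treated libraries, against 39, 43 and 53 counts in untreated libraries. The summed counts, 5 against 135, stood in a ratio of 0.0294 (95% interval 0.00940 to 0.0704, counting error only), and the fitted log2 value of -4.99 (SE 0.52, adjusted p = 1.26e-05 in edgeR) rests on those 5 counts and was -6.51 without treated replicate 2, which held 4 of them. The limit of detection, taken as 3 counts, was 0.415 to 0.696 CPM per library. CLB6 passed the filter here through the untreated libraries. CLB2 had 16.9, 20.7 and 21.2 CPM in treated libraries, against 74.4, 76.0 and 89.0 CPM in untreated libraries (-2.05, SE 0.12, adjusted p = 3.32e-07 in edgeR). CLB1 had 37.7, 49.1 and 50.5 CPM in treated libraries, against 125, 118 and 124 CPM in untreated libraries (-1.44, SE 0.11, adjusted p = 1.69e-06 in edgeR). Treated libraries were lower than untreated ones without overlap for each of these genes. CLB5 had 12.3, 19.5 and 12.8 CPM in treated libraries, against 29.0, 30.4 and 27.7 CPM in untreated libraries, again without overlap (-0.98, SE 0.19, adjusted p = 7.94e-04 in edgeR).

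WHI5 had 10.4, 12.6 and 11.6 CPM in treated libraries, against 19.5, 25.0 and 27.7 CPM in untreated libraries (-1.08, SE 0.18, adjusted p = 3.45e-04 in edgeR). SIC1 had 129, 102 and 116 CPM in treated libraries, against 89.0, 112 and 99.2 CPM in untreated libraries, and did not pass the test (0.19, SE 0.11, adjusted p = 0.145 in edgeR). It was called with scaling by library size only (0.71) and without treated replicate 2 (0.25, adjusted p = 0.0371 in edgeR). CLN2 was called with that scaling as well (0.91).

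In the SBF and MBF targets, 20 of 29 genes were lower and 5 higher in treated wild-type cells (median -0.97). These counts were 17 and 7 (median -0.45) with scaling by library size only. The shares over all genes were 37.0% lower and 39.4% higher with TMM scaling. RNR1, the large subunit gene of ribonucleotide reductase, had 51.6 ± 19.4 CPM in treated and 482 ± 20.5 CPM in untreated cells (log2 fold change -3.24), and POL30 had 16.2 ± 4.44 and 115 ± 6.40 CPM (-2.84). PCL1, a cyclin gene of the Pho85 kinase that SBF drives together with CLN1 and CLN2, was higher, with 179 ± 59.2 CPM in treated and 41.4 ± 8.05 CPM in untreated cells (2.09), and SVS1, another SBF target, was higher too (1.46). The CLB2 cluster had 14 of 21 genes lower and 3 higher (median -0.51), but 9 lower and 8 higher with scaling by library size only. Its members SWI5 (-2.07) and SPO12, a mitotic exit gene (-2.03), were lower, and MOB1, a mitotic exit kinase subunit gene, was higher (1.00).

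Of the 15 G1/S regulators 6 were higher and 5 lower, against 11 and 2 with scaling by library size only. The shares over all genes were 39.4% higher and 37.0% lower with TMM scaling. SRL3 had 302 ± 47.2 CPM in treated and 18.4 ± 2.01 CPM in untreated wild-type cells (log2 fold change 4.01, SE 0.15, adjusted p = 6.18e-08 in edgeR), and XBP1 was higher as well (3.21). NRM1, the repressor of MBF targets, was lower (-1.59), as was WHI3, whose product binds CLN3 mRNA (-0.75). MIH1, the gene of the phosphatase that activates Cdc28, was higher (1.15). CDC28 had 80.4 ± 26.4 CPM in treated and 82.4 ± 1.13 CPM in untreated cells (-0.055, SE 0.20, adjusted p = 0.812 in edgeR). CLB3 was lower (-0.46) and CLB4 was at -0.19 (adjusted p = 0.103 in edgeR), and both signs turned with scaling by library size only (0.060 and 0.33).

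In ups1Δ cells, tunicamycin went with higher RNA of CLN1 and CLN2, and no B-type cyclin gene passed the test. By edgeR, 2 of the 8 genes tested were higher and 0 lower, where 27.1% of 5700 genes were called, 15.2% higher and 11.9% lower. For 3 of the 9 the treated libraries lay wholly above the untreated ones, where 46.2% of all genes did not overlap in either direction. No further gene of the 8 reached an unadjusted p-value under 0.05 except CLN3 (unadjusted p = 0.0225, adjusted p = 0.0708 in edgeR), which DESeq2 called as the third. The count over all genes ranged from 728 without treated replicate 2 to 1997 without untreated replicate 3, against 1546 with all 6 libraries. CLB6 was removed by the filter on low counts.

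CLN2 had 167, 185 and 171 CPM in treated libraries, against 113, 109.6 and 77.0 CPM in untreated libraries (log2 fold change 0.81, SE 0.13, adjusted p = 0.00377 in edgeR). CLN1 had 76.7, 82.0 and 89.2 CPM in treated libraries, against 60.6, 59.9 and 57.5 CPM in untreated libraries (0.48, SE 0.086, adjusted p = 0.00402 in edgeR). CLN3 had 109, 115 and 107 CPM in treated libraries, against 71.6, 67.3 and 104.6 CPM in untreated libraries. The groups did not overlap, by the small margin over untreated replicate 3 (0.45, SE 0.16), and CLN3 was called without that library (0.67, adjusted p = 2.01e-05 in edgeR), with DESeq2 (0.43, adjusted p = 0.0380) and with scaling by library size only (0.55, adjusted p = 0.0361 in edgeR).

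The B-type cyclin genes lay within their spread. CLB1 had 52.3, 47.0 and 41.8 CPM in treated libraries, against 46.4, 53.6 and 38.7 CPM in untreated libraries (0.032, SE 0.13). CLB2 had 37.9, 40.1 and 43.5 CPM in treated libraries, against 39.1, 44.3 and 31.1 CPM in untreated libraries (0.093, SE 0.13). CLB5 had 19.6, 18.1 and 15.5 CPM in treated libraries, against 20.6, 18.2 and 15.8 CPM in untreated libraries (-0.026, SE 0.16). For each of these 3 genes the treated and untreated ranges overlapped. CLB6 had 11, 14 and 14 counts in treated libraries, against 9, 9 and 6 counts in untreated libraries, a ratio of 1.29 after scaling (95% interval 0.756 to 2.24, counting error only). SIC1 averaged 124 ± 16.7 CPM in treated and 124 ± 2.63 CPM in untreated ups1Δ cells, and WHI5 averaged 24.2 ± 2.79 and 22.6 ± 3.51 CPM.

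Of the SBF and MBF targets, 8 of 29 were higher and 0 lower (median 0.017), led by SVS1 (log2 fold change 1.55) and CSI2, a gene linked to chitin synthesis (1.15). The shares over all genes were 15.2% higher and 11.9% lower. The CLB2 cluster had 2 of 21 genes higher and 6 lower, with SPO12 (-0.76) and SWI5 (-0.64) the largest decreases. None was higher with DESeq2 or in 5 of the 6 fits without 1 library, and 3 were lower without treated replicate 2. Among the 8 kinase partners, 4 were higher and 0 lower: MIH1 (0.61), CKS1, a kinase subunit gene (0.58), CDC28 (0.41) and, named to complete the count, SWE1 (0.53). Without treated replicate 2 only 1 was higher, and 2 were in the fit of all 12 libraries. YOX1 (1.59) and BCK2, an activator of G1/S transcription (0.52), were higher, and RME1, a zinc-finger regulator gene, was lower (-0.53). CLB3 was at 0.15 and CLB4 at -0.066, and neither passed the test.

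With both genotypes under tunicamycin, ups1Δ cells had less CLN1 and CLN2 RNA and more CLB2 and WHI5 RNA than wild-type cells. By edgeR, 2 of the 8 genes tested were higher and 2 lower, where 66.4% of 5771 genes were called, 32.7% higher and 33.6% lower. The libraries of the genotypes did not overlap for 5 of the 9, against 71.8% of all genes. The count of called genes ranged from 3 without treated ups1Δ replicate 1 to 7 without treated wild-type replicate 2, where CLN3, CLB5 and CLB6 were called too.

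CLB2 had 37.9, 40.1 and 43.5 CPM in ups1Δ libraries, against 16.9, 20.7 and 21.2 CPM in wild-type libraries (log2 fold change 1.04, SE 0.13, adjusted p = 5.51e-05 in edgeR). WHI5 had 21.2, 24.5 and 26.8 CPM in ups1Δ libraries, against 10.4, 12.6 and 11.6 CPM in wild-type libraries (1.06, SE 0.16, adjusted p = 2.17e-04 in edgeR). The genotypes were apart without overlap for both genes. CLN1 had 76.7, 82.0 and 89.2 CPM in ups1Δ libraries, against 140.3, 220.5 and 183 CPM in wild-type libraries (-1.13, SE 0.15, adjusted p = 1.90e-04 in edgeR). CLN2 had 167, 185 and 171 CPM in ups1Δ libraries, against 191, 351 and 261 CPM in wild-type libraries (-0.62, SE 0.19, adjusted p = 0.0207 in edgeR). Its call was lost without wild-type replicate 3 (adjusted p = 0.0657), ups1Δ replicate 1 (0.0702) or ups1Δ replicate 3 (0.0645, all in edgeR).

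CLB6 had 11, 14 and 14 counts in ups1Δ libraries, against 1, 4 and 0 counts in wild-type libraries. The groups did not overlap, and the scaled ratio of 39 to 5 counts was 7.95 (95% interval 3.13 to 25.8, counting error only). It was removed by the filter, and without a filter the fit gave 2.92 on the log2 scale (adjusted p = 0.00334 in edgeR). With the filter, CLB6 was kept in some fits without 1 library. It was 4.44 without wild-type replicate 2, 2.67 without wild-type replicate 1 and 2.35 without wild-type replicate 3. Without ups1Δ replicate 2 it was 3.06, and each of these values passed the test. CLB1 averaged 47.0 ± 5.22 CPM in ups1Δ and 45.8 ± 7.01 CPM in wild-type cells (0.039, SE 0.13, adjusted p = 0.812 in edgeR). CLB5 (0.26, SE 0.20), CLN3 (-0.26, SE 0.14) and SIC1 (0.10, SE 0.12) did not pass the test.

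Of the SBF and MBF targets, 16 of 29 were higher and 4 lower in treated ups1Δ than in treated wild-type cells (median 0.37), and 10 higher and 8 lower with scaling by library size only. The number lower was 7 without wild-type replicate 1 and 2 without ups1Δ replicate 1 or 2. RNR1 had 302 ± 23.1 CPM in ups1Δ and 51.6 ± 19.4 CPM in wild-type cells (log2 fold change 2.55), and CDC21, the thymidylate synthase gene, 54.1 ± 5.71 and 15.2 ± 4.34 CPM (1.83). Among the decreases whose libraries did not overlap were those of PCL2, a Pho85 cyclin gene (-1.04), and AXL2, a bud site gene (-0.85). Of the CLB2 cluster 9 of 21 were higher and 3 lower, against 6 higher and 8 lower with that scaling. The shares over all genes were 32.7% higher and 33.6% lower with TMM scaling. BUD4 (1.39) and HOF1, a cytokinesis gene (1.222), were higher, and DBF2, a mitotic exit kinase gene (-0.95), and MOB1 (-0.76) were lower. Among the regulators, SRL3 had 66.1 ± 10.5 CPM in ups1Δ and 302 ± 47.2 CPM in wild-type cells (-2.19). MSA1, an activator of G1/S transcription, was lower (-0.91), and WHI3 was higher (0.68). CLB3 was higher (0.27, turning to -0.027 with library size only), CLB4 stood at -0.25 and CDC28 at 0.048, and these 2 did not pass the test.

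**Figure D2:**
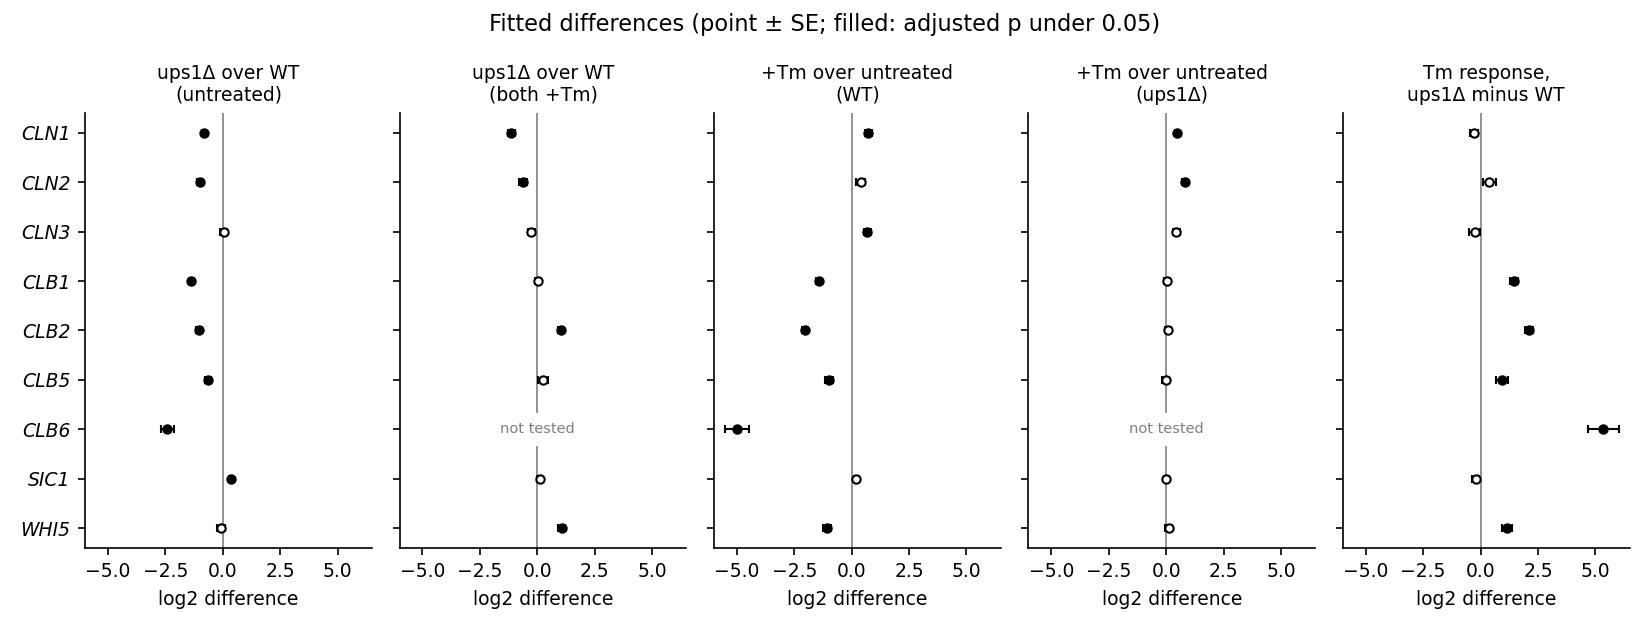
Fitted log2 differences of the 9 genes in the 4 pairwise comparisons and in the difference between the genotypes' responses to tunicamycin (Tm). Points are edgeR estimates with bars of ± SE, filled where the adjusted p-value was under 0.05. The 4 B-type cyclin genes and WHI5 are filled and to the right of 0 in the last panel.

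The genotypes differed in their response to tunicamycin for the 4 B-type cyclin genes and WHI5, and none of the G1 cyclin genes or SIC1 passed this test. The difference, the response of ups1Δ cells minus that of wild-type cells, was tested in all 12 libraries, and 5 of the 9 genes were higher and 0 lower, where 66.0% of 5828 genes were called, 32.9% higher and 33.2% lower. DESeq2 also called 5, and none of the other genes had an unadjusted p-value under 0.05 in edgeR. For CLB2 it was 2.11 on the log2 scale (SE 0.19, adjusted p = 3.66e-07 in edgeR), with 0.093 in ups1Δ cells and -2.05 in wild-type cells. For CLB1 it was 1.45 (SE 0.18, adjusted p = 1.05e-05 in edgeR), for WHI5 1.16 (SE 0.24, adjusted p = 6.18e-04) and for CLB5 0.93 (SE 0.25, adjusted p = 0.00453). CLB2 averaged 40.5 CPM in treated and 38.2 in untreated ups1Δ cells, and 19.6 in treated and 79.8 in untreated wild-type cells. CLB1 averaged 47.0 CPM in treated and 46.3 in untreated ups1Δ cells, and 45.8 in treated and 123 in untreated wild-type cells. CLB5 averaged 17.7, 18.2, 14.9 and 29.0 CPM in the same order. The CLB6 estimate of 5.34 (SE 0.67, adjusted p = 9.17e-06 in edgeR) rests on the 5 counts of treated wild-type cells and was 6.85 without treated wild-type replicate 2. With all libraries of a comparison, CLB6 passed the low count filter only where untreated wild-type cells, its highest group, were included. The 5 calls kept their direction and their call in each of the 12 fits that left out 1 library. With scaling by library size only, which moved the median of all genes to -0.42, CLB5 fell short (0.55, adjusted p = 0.0633 in edgeR).

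The differences of the G1 cyclin genes were -0.27 for CLN1 (SE 0.18, adjusted p = 0.201 in edgeR), 0.39 for CLN2 (SE 0.27, adjusted p = 0.229) and -0.26 for CLN3 (SE 0.24, adjusted p = 0.350). SIC1 was at -0.21 (SE 0.16, adjusted p = 0.253 in edgeR). CLN1 was called without treated wild-type replicate 1 (-0.43, adjusted p = 0.0114 in edgeR) and CLN2 without treated wild-type replicate 2 (0.63, adjusted p = 0.0169). With scaling by library size only, CLN1 (-0.66), CLN3 (-0.65) and SIC1 (-0.60) were called.

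Of the SBF and MBF targets, 22 of 29 were higher and 0 lower in this difference (median 0.90), and 16 were higher and 2 lower with scaling by library size only. RNR1 (3.15) and POL30 (2.72) led them. In the CLB2 cluster 9 of 21 were higher and 3 lower (9 and 6 with library size only). The shares over all genes were 32.9% higher and 33.2% lower with TMM scaling. The cluster was led by BUD4 (1.69) and HOF1 (1.52), with DBF2 (-0.92) and MOB1 (-0.81) the other way. SRL3 (-3.77) and XBP1 (-3.43) had the largest negative differences among the regulators, and NRM1 (1.36) and WHI3 (0.79) the largest positive ones. Ribosomal protein genes moved in the same comparisons, with medians of 2.45 in this difference, 1.85 between treated genotypes, -2.84 in wild-type cells with tunicamycin, -0.36 in ups1Δ cells with tunicamycin and -0.54 between untreated genotypes. Their part in the scaling was not tested.

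**Figure D3:**
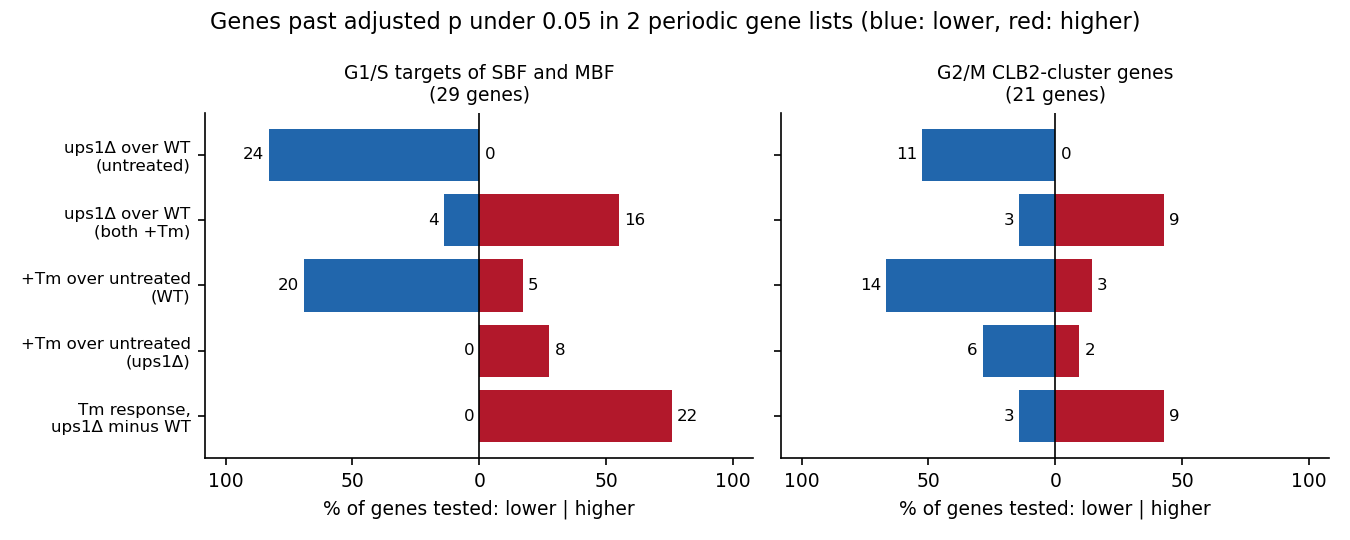
Share of genes past an adjusted p-value of 0.05 in edgeR, lower to the left and higher to the right, for 2 lists of cell cycle genes in the 5 comparisons, with the number of genes at each bar. The SBF and MBF targets had 24 of 29 lower between untreated genotypes and 22 of 29 higher in the difference of the tunicamycin (Tm) responses. Over all genes tested, 25.8% were lower between untreated genotypes and 32.9% higher in that difference.

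The balance between G1 and B-type cyclin RNA was compared within each library from the summed CPM per kb, a measure added after the data were seen and given without a test. B-type cyclins made up 25.8 ± 1.39% of the sum in treated ups1Δ cells, 33.8 ± 3.41% in untreated ups1Δ cells, 14.1 ± 0.659% in treated wild-type cells and 42.2 ± 0.466% in untreated wild-type cells (SD, n = 3). The 4 groups did not overlap. The summed G1 cyclins stood at 220 ± 8.90 CPM per kb in treated ups1Δ, 144 ± 3.00 in untreated ups1Δ, 349 ± 57.1 in treated wild-type and 235 ± 5.28 in untreated wild-type cells. The summed B-type cyclins stood at 76.3 ± 3.10, 74.0 ± 11.2, 57.2 ± 8.57 and 171 ± 6.25 CPM per kb in the same groups. Treated and untreated ups1Δ libraries did not overlap in the G1 sum and did in the B-type sum, and the wild-type groups did not overlap in either.

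**Figure D4:**
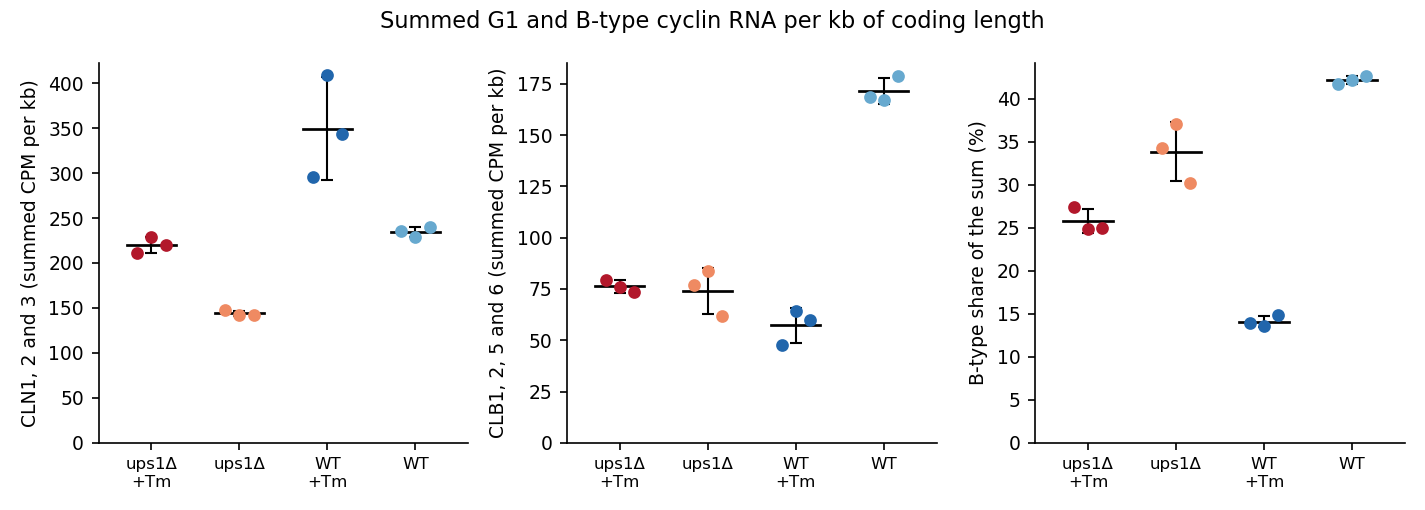
Summed level of the 3 G1 cyclin genes (left) and of the 4 B-type cyclin genes (middle) in CPM per kb of coding length, and the B-type share of both sums in percent (right), in each library. Lines are means and bars ± SD (n = 3); Tm is tunicamycin. The share was 13.6% to 14.8% in treated wild-type cells and 41.8% to 42.7% in untreated wild-type cells.

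Ratios of 2 genes within a library do not depend on how libraries are scaled. An exact permutation test on 3 against 3 libraries cannot go below p = 0.10, so none of the 16 tests could pass the threshold, and the lowest adjusted p-value was 0.200. The log2 ratio of WHI5 to CLN3, the repressor to the activator of G1, was -2.35, -2.23 and -1.99 in treated ups1Δ libraries, -1.58, -1.84 and -2.04 in untreated ups1Δ libraries, -3.95, -3.05 and -3.43 in treated wild-type libraries and -2.08, -1.64 and -1.56 in untreated wild-type libraries. Treated wild-type libraries lay below all others, with a difference of -1.72 from untreated wild-type cells and of 1.29 for treated ups1Δ minus treated wild-type cells (exact p = 0.10, the smallest possible, two-sided, for both).

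The log2 ratio of SIC1 to CLB5, the inhibitor to its target cyclin, was 2.80 ± 0.064 in treated ups1Δ cells, 2.77 ± 0.22 in untreated ups1Δ cells, 2.98 ± 0.53 in treated wild-type cells and 1.78 ± 0.14 in untreated wild-type cells (SD, n = 3). It was higher by 1.00 in untreated ups1Δ than in untreated wild-type cells and by 1.204 in treated than in untreated wild-type cells, without overlap (exact permutation p = 0.10 for both). The ratio of CLN2 to CLN3 was 0.66 ± 0.035, 0.31 ± 0.65, 1.00 ± 0.75 and 1.31 ± 0.066 in the same 4 groups, and only the untreated genotypes did not overlap (-0.999, exact permutation p = 0.10). That difference was -0.62 without untreated ups1Δ replicate 3, the library at -0.44 where the other 2 were at 0.66 and 0.70. The ratio of CLB2 to CLB5 was 1.19 ± 0.27, 1.06 ± 0.19, 0.42 ± 0.32 and 1.45 ± 0.20. Mitotic CLB2 RNA was thus lower relative to CLB5 in treated than in untreated wild-type cells (-1.03) and higher in treated ups1Δ than in treated wild-type cells (0.77), each without overlap (exact permutation p = 0.10). This ratio was also lower in untreated ups1Δ than in untreated wild-type cells without overlap (-0.40, exact permutation p = 0.10).

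**Figure D5:**
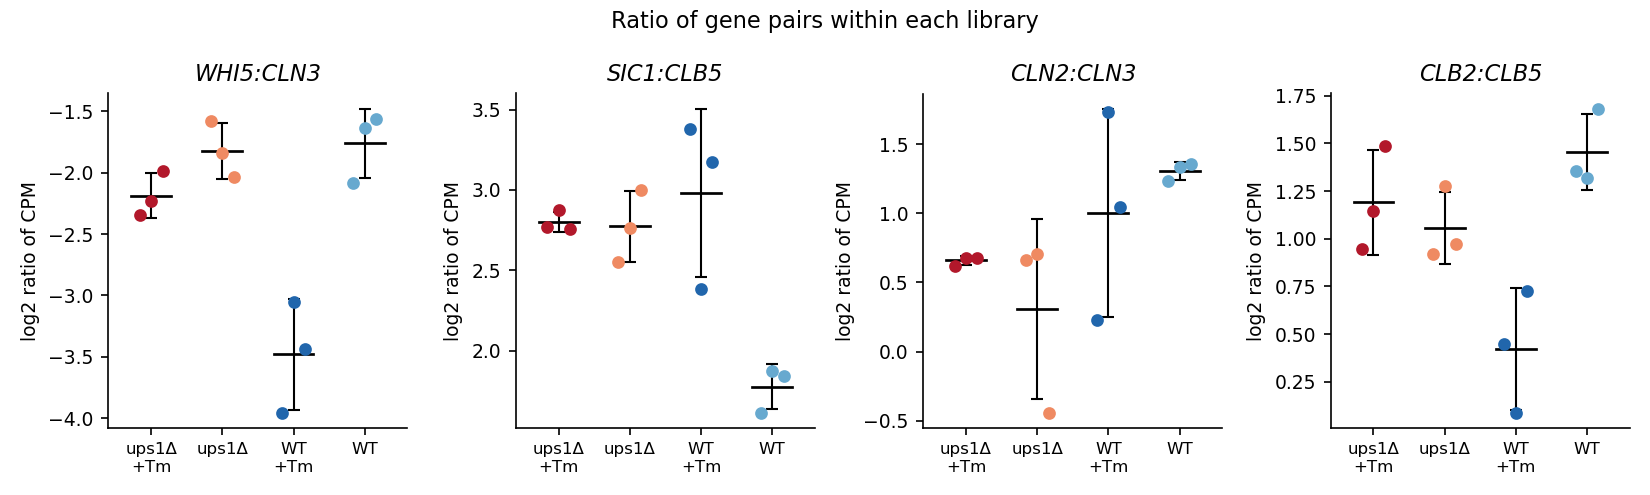
Log2 ratio of the CPM of 2 genes within each library for 4 pairs; axes do not start at 0. Points are libraries, lines are means and bars ± SD (n = 3); Tm is tunicamycin. The WHI5 to CLN3 ratio in treated wild-type libraries (-3.95 to -3.05) lay below those of the other groups.

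3 libraries stood off their group means for several of the genes. In untreated ups1Δ cells replicate 3 had CLN3 above its group mean by 0.39 on the log2 scale, and CLN2 (-0.36), CLB1 (-0.24), CLB2 (-0.28), CLB5 (-0.20) and CLB6 (-0.38) below it. This library also had the largest SD of gene deviations from the group mean of all 12 (0.303, against 0.188 to 0.261 in the others). In treated wild-type cells replicate 1 had CLN1 (-0.34) and CLN2 (-0.44) below and CLN3 (0.33) above the group mean, and replicate 2 had CLN1 (0.31), CLN2 (0.44) and CLB5 (0.42) above and CLN3 (-0.30) below it. CLN2 and CLN3 thus deviated in opposite directions in these 3 libraries. Leaving out 1 of these libraries changed calls of CLN1, CLN2, CLN3, CLB5 and SIC1, as given with each comparison.

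The genes most like the 3 members of widest range were sought among 5361 genes of at least 10 CPM on average, by Pearson's correlation of log2 CPM over the 12 libraries. This describes the pattern over 4 groups that share their scaling, and no test was made. For CLB6 they were SEC14, a phosphatidylinositol transfer protein gene (r = 0.987), FAS1, a fatty acid synthase subunit gene (0.985), and LCB2, a sphingolipid synthesis gene (0.984). The CLB6 values rest on 0 to 4 counts in treated wild-type libraries, and the sizes of change differed. CLB6 averaged 0.292 CPM in treated and 9.74 in untreated wild-type cells, and SEC14 averaged 92.1 and 201 CPM. For CLB2 they were KEL3 (0.991), TYW1, a tRNA modification gene (0.988), and SGO1, which encodes the centromere protector shugoshin (0.982). SGO1 averaged 28.7 CPM in treated ups1Δ, 26.9 in untreated ups1Δ, 16.5 in treated wild-type and 50.3 in untreated wild-type cells, the same order as CLB2. For CLN1 they were NFG1 (0.978), AGE2, a vesicle transport regulator gene (0.954), and the Ty element gene YDR210W-B (0.954).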

How the data were processed

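Per the labels, log-phase cultures gave poly(A) RNA for stranded paired-end libraries, and the study's methods name kallisto against sacCer3. The authors deposited 1 table of estimated counts per feature for the 12 libraries, already rounded to whole numbers, and 4 tables of their own comparisons (fold changes and p-values), which were not used. No count was normalized beforehand. Library totals were 4650828 to 7101983, and intervals cover counting error only.

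Groups follow the labels. Counts were scaled by the trimmed mean of M-values (TMM), filtered by filterByExpr and tested with edgeR 4.0.16 (quasi-likelihood, R 4.3.3), pairwise with the 2 groups compared as the study's methods did, and with all 12 libraries for the difference of responses, with Benjamini-Hochberg adjustment over all genes tested at 0.05. The SE is the size of the fold change over the square root of F. The code was tested on simulated data. Alternatives were DESeq2 1.42.0, its size factors, library size only, other filters and thresholds, a replicate block and leaving out each library. Of the 7110 features, 6048 matched R64 names and 270 had 0 counts in all libraries.

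The members and gene lists were chosen with earlier results of these data known. Genes named were the 9 members, CDC28, CLB3, CLB4 and, per list and comparison, up to 2 called genes without overlap with the largest change in each direction, with exceptions stated. Among 18 pairs of same-numbered libraries of different groups, the correlation of deviations was -0.25 to 0.12, so the numbers were not taken to pair libraries. The results of 1 list of genes are not reported here.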

Additional observations from a re-analysis of the deposited data

Results flagged for a closer look

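For 5 of the 9 genes the response to tunicamycin in ups1Δ cells minus that in wild-type cells passed edgeR's test of the difference itself. Of all 5828 genes tested, 66.0% were called, 32.9% higher and 33.2% lower, so calls were as common elsewhere. On the log2 scale this difference was 1.45 for CLB1, 2.11 for CLB2, 0.93 for CLB5, 5.34 for CLB6 and 1.16 for WHI5. The CLB6 value rests on 5 counts in treated wild-type cells. With all libraries of a comparison, CLB6 passed the low count filter only where untreated wild-type cells, its highest group, were included. Mating type markers differed between the genotypes, and their part in these values cannot be told apart from that of UPS1.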

How the results depend on the processing

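Of 601 values for the 9 genes under the alternatives, 560 kept their direction and their side of the threshold, 22 reversed, 15 came to pass the threshold and 4 no longer passed it. The cause was not tested. At an adjusted p under 0.01, edgeR called 1928 genes between untreated genotypes and 700 for tunicamycin in ups1Δ cells. At a log2 fold change of at least 1 it called 475 genes between untreated genotypes (3 of the 9), 1314 between treated genotypes, 2023 for tunicamycin in wild-type cells (4 of the 9), 193 for tunicamycin in ups1Δ cells (0 of the 9) and 1931 for the difference of responses. Leaving out 1 library gave 728 to 1997 genes for tunicamycin in ups1Δ cells and 3 to 7 of the 9 between treated genotypes.

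Scaling by library size only made 25.9% of called genes lower for tunicamycin in wild-type cells (48.4% with TMM), 70.6% between treated genotypes (50.7%), 22.5% for tunicamycin in ups1Δ cells (44.0%) and 70.6% for the difference of responses (50.2%). With it, values of uncalled or weakly changed genes turned. Between treated genotypes CLB1 was -0.26, CLB5 -0.040, SIC1 -0.20, CLB3 -0.027, CDC34 -0.020 and CDC28 -0.25. For tunicamycin in wild-type cells CLB3 was 0.060, CDC14 0.056, CDC28 0.46 and CLB4 0.33, and in ups1Δ cells CLB5 was 0.079 and CLB4 0.039. For the difference of responses CLN2 was -8.64e-05, SKP1 -0.046 and CLB4 -0.29.

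For tunicamycin in ups1Δ cells SIC1 was -0.0074 with DESeq2 and with its size factors, and -0.0011 with the replicate block. The block changed no other call or direction of the 9 genes (CLB2 was 2.11 and CLB5 0.93 in the difference of responses with it).

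Leaving out 1 library turned the sign of values near 0. Between untreated genotypes CLN3 was -0.20 to 0.16 and WHI5 -0.19 to 0.062. Between treated genotypes CLB1 was -0.084 to 0.13 and CDC28 -0.13 to 0.34, and CDC28 was -0.37 to 0.11 for tunicamycin in wild-type cells. For tunicamycin in ups1Δ cells CLB1 was -0.089 to 0.14, CLB2 -0.045 to 0.21, CLB5 -0.13 to 0.063, SIC1 -0.051 to 0.11 and WHI5 -0.025 to 0.19. The WHI5 to CLN3 ratio was -0.22 to 0.046 between untreated genotypes. The SIC1 to CLB5 ratio was -0.48 to 0.019 between treated genotypes and -0.084 to 0.14 for tunicamycin in ups1Δ cells. The CLN2 to CLN3 ratio was -0.73 to 0.022 between treated genotypes, -0.67 to 0.083 for tunicamycin in wild-type cells and -0.024 to 0.55 in ups1Δ cells. The CLB2 to CLB5 ratio was -0.014 to 0.26 for tunicamycin in ups1Δ cells. Depth limits CLB6 most, at 0 to 53 counts per library.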

Other observations

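Other lists of the cycle were measured in the same fits. Of all genes tested, 76.4% were called for tunicamycin in wild-type cells (39.4% higher, 37.0% lower) and 27.1% in ups1Δ cells (15.2% higher, 11.9% lower). The shares were 52.3% between untreated genotypes, 66.4% between treated genotypes and 66.0% in the difference of responses. The 6 MCM helicase genes, which load at replication origins, had 5 lower and 0 higher for tunicamycin in wild-type cells (median log2 fold change -0.73), and 4 higher and 0 lower in the difference of responses. With scaling by library size only, each of those counts was 1 lower and 1 higher, and the 4 were 2 without untreated wild-type replicate 2 or 3, untreated ups1Δ replicate 3 or treated ups1Δ replicate 1. Of the 8 core histone genes, 7 were lower for tunicamycin in ups1Δ cells (median -0.39) and 6 in wild-type cells (median -0.53), against 4 and 2 with library size only, and the 7 were 4 without untreated replicate 1 or treated replicate 2 or 3. Of 12 genes for the SCF and APC/C ubiquitin ligases and the Cdc14 phosphatase, 8 were higher and 2 lower for tunicamycin in wild-type cells, and 3 were higher and 1 lower between untreated genotypes, where 1 was higher with DESeq2 or without wild-type replicate 1 or 2. Of the G2/M transcription factor genes FKH1, FKH2, NDD1 and MCM1, 3 were lower for tunicamycin in wild-type cells and 3 were higher between treated genotypes, against 2 and 1 with library size only.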
